A study of Mus musculus with 65 samples.

Results

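The clustered protocadherins are adhesion proteins of the cell surface whose genes lie side by side in 3 groups, Pcdha, Pcdhb and Pcdhg. Every gene of the GENCODE annotation on chromosome 18 of mm10 (GRCm38) whose symbol starts with one of these names was taken, which gave 58 of 22020 protein-coding genes. The 58 genes carry 57 symbols, since the genes ENSMUSG00000007440.10 and ENSMUSG00000102206.5 are both named Pcdha11. They comprise 14 Pcdha, 22 Pcdhb and 22 Pcdhg genes, all on the plus strand between positions 36930184 and 37841873. All CTCF and TAL1 peaks were collected from 100000 bp before the first to 200000 bp after the last of them, a window of 1.21 Mb from 36830184 to 38041873. Merging the peaks of the libraries compared here gave 64 CTCF sites in the window, of 66618 in the genome, and merging those of all TAL1 libraries gave 7 TAL1 sites of 13153.

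The Pcdha and Pcdhg genes each begin with a long variable exon that has its own promoter and is spliced to exons shared by the group, while the Pcdhb genes are mostly read from a single exon. Neurons are known to switch on a small set of these promoters in each cell, which gives neighbouring cells different surface labels. The zinc finger protein CTCF binds many of the promoters, and with cohesin it is known to hold an active promoter in a loop with enhancers that lie downstream of the genes. The genes are best known from the nervous system.

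The data were 53 ChIP-seq libraries, 34 with an antibody against CTCF and 19 against TAL1, a basic helix-loop-helix factor of red cell precursors. In 23 CTCF libraries and all TAL1 libraries the cells were G1E-ER4+E2, an erythroid line without GATA1 of its own, derived from mouse embryonic stem cells, in which a GATA1 fusion protein responds to estradiol; it was kept in kit ligand and erythropoietin and given estradiol for 24 hours. The other 11 CTCF libraries came from bone marrow of untreated male C57BL/6 mice of a few weeks of age, sorted by surface markers. All of these sorts were negative for CD4, CD8, IL7Ra, CD11b, Ly6g and CD45R. LSK cells (2 libraries) were Ter119-, cKit+ and Sca1+ and include the blood stem cells. CMP and GMP (1 each) were Ter119-, cKit+, Sca1- and CD34+, CMP being CD16/32- and GMP CD16/32+, and MEP (1) were negative for Ter119, Sca1, CD34 and CD16/32 and positive for cKit. CFUE (1) and ERY (2) were Ter119+ and CD44+ with high and low forward scatter, and CFUMk (1) and iMk (2) were negative for Ter119 and Sca1 and positive for CD41 and CD61, with and without cKit. CFUE, ERY, CFUMk and iMk are names of colony-forming erythroid cells, erythroblasts, colony-forming megakaryocyte cells and megakaryocytes. The line is a single line and the rare progenitors were pooled over many mice and sorts, so p-values measure the spread between libraries.

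From the appearance of its signal the study assessed each library as Pass, Low pass or Fail. Comparisons used the 14 Pass libraries of the line, with 10655 to 21986 peaks (median 13164), and all 11 primary libraries, with 6629 to 36481 peaks (median 19612), of which CMP and GMP were Low pass. By the study's methods the line was fixed for a shorter time, though its retrospective libraries came from varied conditions, with different fixation methods among them. In part of the line's libraries the study varied sonication and cell number on purpose. Chromatin was 199 to 302 bp long in the Pass libraries of the line and 217 to 283 bp in primary cells. Most peaks of the line were called against a composite input. Cell type, fixation, shearing, cell number, input and depth therefore cannot be told apart in any comparison of the line with primary cells. The CFUMk library stood apart from all others, with the longest list and 46 peaks in the window, and results that rest on it are given with and without it.

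The CTCF peaks of the line lay mostly beyond the genes. A Pass library of the line had 9 to 20 CTCF peaks in the window (median 14), of which 7 to 11 (median 10) lay after the last gene and 1 to 9 (median 4) among the genes. A primary library had 5 to 46 peaks (median 18), with 4 to 13 (median 11) after the last gene and 1 to 34 (median 7) among the genes. The ranges of the groups overlapped for each of these numbers. In none of the 53 libraries was a peak called in the stretch before the first gene.

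**Figure D1:**
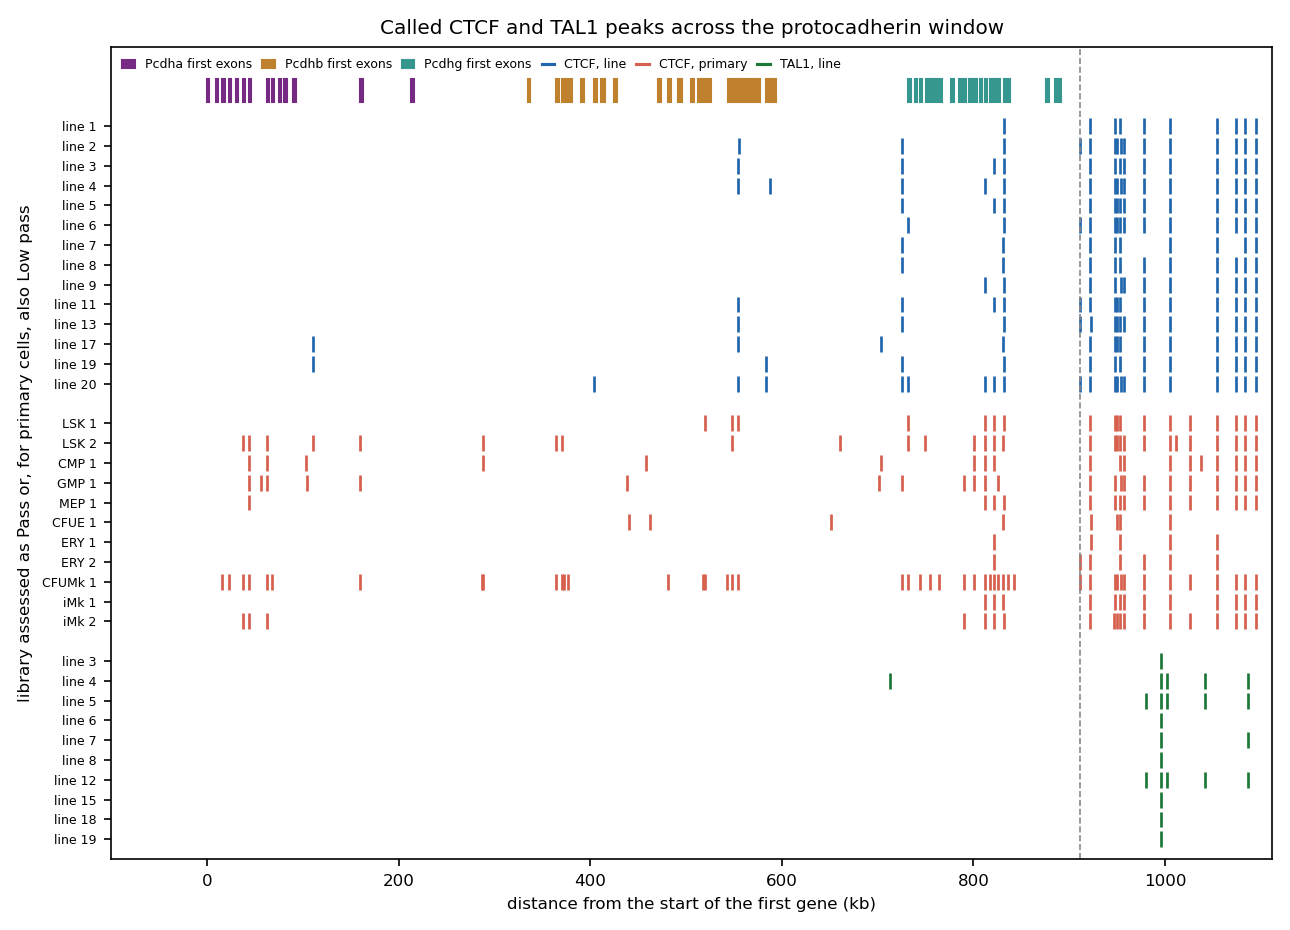
Called peaks of 14 Pass CTCF libraries of the line (blue), 11 primary CTCF libraries (red) and 10 Pass TAL1 libraries of the line (green), as ticks at their middle, against the distance from the start of the first gene in kb; boxes mark first exons and the dashed line the end of the last gene. All 14 line libraries and most primary libraries share a block of CTCF peaks to the right of the dashed line, while no line library has a tick at a Pcdha first exon.

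A gene was counted as called in a library where a CTCF peak overlapped the 1000 bp before its start or its first exon. In the 14 Pass libraries of the line 8 of the 58 genes (13.8%) were called at least 1 time, against a background of 10.1% of all protein-coding genes. In the 11 primary libraries 28 of the 58 (48.3%) were called at least 1 time, against 24.4% of all genes. Without CFUMk these were 17 of 58 (29.3%) against 20.5% of all genes. In at least 50% of the libraries of their group, 2 genes (3.45%) were called in the line, against a background of 5.95%, and 4 genes (6.90%) in primary cells, against 9.16%. The shares called in at least 50% of libraries rest on few genes and lay near the background. Of the 111 calls of a gene in a library, 74 were at the 8 genes called in 4 or more of the 25 libraries, and 14 genes were called in 1 library each.

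By gene group, no Pcdha gene was called in any line library, and 7 of the 14 were called in primary cells, 4 of them also when CFUMk was left out. Of the 22 Pcdhb genes 4 were called in the line and 8 in primary cells, or 5 without CFUMk. Of the 22 Pcdhg genes 4 were called in the line and 13 in primary cells, or 8 without CFUMk. Over both sets of cells 27 genes were never called, 23 were called in primary cells alone and 3, Pcdhb6, Pcdhb21 and Pcdhb22, in the line alone. Beside these counts, 10.1% of all protein-coding genes were called at least 1 time in the line. In primary cells this was 24.4%, or 20.5% without CFUMk. The share of all genes called only in the line or only in primary cells was not computed. A difference between the gene groups was not tested.

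**Figure D2:**
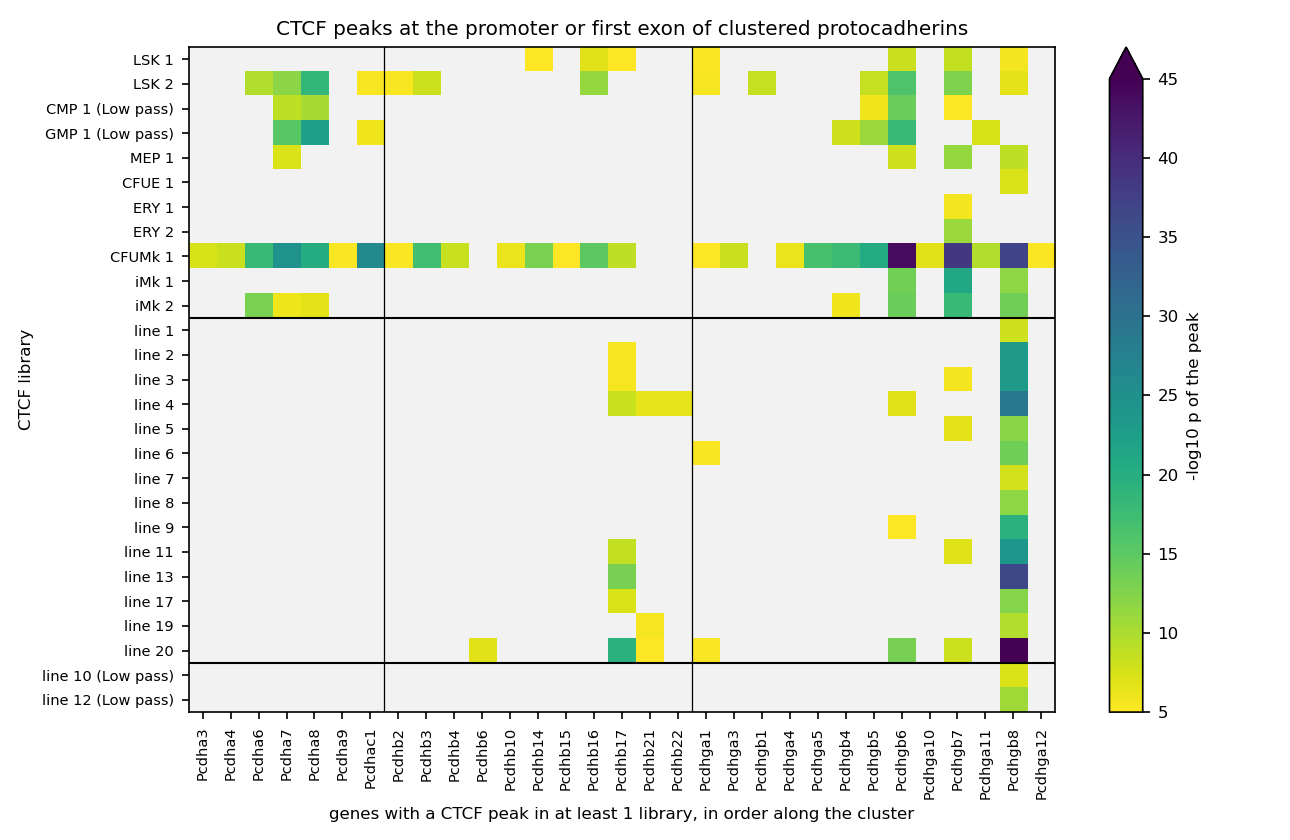
CTCF peaks at the promoter or first exon of the 31 genes called in at least 1 library, in their order along the chromosome, in 11 primary libraries, 14 Pass and 2 Low pass libraries of the line; colour is the −log10 p of the strongest peak, grey means no peak, thick lines part the groups of libraries and thin lines the gene groups. CFUMk has the most filled cells, 27 genes, and Pcdhgb8 is filled in all 16 line libraries shown.

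Among 8 genes called in 4 or more of the 25 libraries, Pcdhgb8 was the only one called throughout the line. Its peak was called in 14 of 14 Pass libraries of the line with a −log10 p of 7.72 to 46.5 (median 16.6), which put it at a median percentile of 74.0 of its library's list. It was also the only gene of the 58 called in the 2 Low pass libraries of the line, at a −log10 p of 7.03 and 10.7. In primary cells it was called in 7 of 11 libraries, LSK 1 and 2, MEP, CFUE, CFUMk and iMk 1 and 2, with a −log10 p of 5.68 to 36.9 (median 8.77) and a median percentile of 43.7. It was missing from CMP, GMP and both ERY libraries.

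The nearby genes Pcdhgb7 and Pcdhgb6 were called in more primary than line libraries. Pcdhgb7 was called in 9 of 11 primary libraries (−log10 p 5.16 to 38.5, median 11.3) and in 4 of 14 line libraries (5.71, 6.68, 6.90 and 8.07). Pcdhgb6 was called in 8 of 11 primary libraries (7.90 to 43.8, median 14.1) and in 3 of 14 line libraries (5.14, 6.74 and 13.3). Both ERY libraries called Pcdhgb7 and no other gene of the 58, and CFUE called Pcdhgb8 and no other. Pcdhgb5 was called in LSK 2, CMP, GMP and CFUMk, at a −log10 p of 8.49, 5.91, 11.01 and 20.3, and in no line library. Pcdhgb4 was called in GMP, CFUMk and iMk 2 alone. Pcdhga1, the first gene of its group, was called at a −log10 p of 5.00 to 5.47 in LSK 1, LSK 2, CFUMk and 2 line libraries, near the lowest value that the lists hold.

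Of the Pcdha genes, Pcdha7 and Pcdha8 were called most often. Pcdha7 was called in LSK 2, CMP, MEP, GMP, CFUMk and iMk 2, at a −log10 p of 12.02, 8.76, 7.26, 15.4, 24.5 and 5.97. Pcdha8 was called in LSK 2, CMP, GMP, CFUMk and iMk 2, at 18.5, 10.2, 22.5, 20.2 and 6.60. No erythroid library, of CFUE, of ERY or of the line, called either gene, and neither did LSK 1 or iMk 1. The middle of these peaks lay in the first exon, at a median of 554 bp after the start of Pcdha7 and 513 bp after that of Pcdha8. Pcdha6, in LSK 2, CFUMk and iMk 2, had its peak 596 bp after the start. Pcdhac1, 1 of the 2 genes at the end of the Pcdha group, was called in LSK 2, GMP and CFUMk, 78 bp before the start. Pcdha3, Pcdha4 and Pcdha9 were called in CFUMk alone.

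Of the Pcdhb genes, Pcdhb17 was called in 7 of 14 line libraries, at a −log10 p of 5.56 to 19.5 (median 8.31), and in LSK 1 and CFUMk, at 5.11 and 8.90. The test of its site did not pass (adjusted p = 0.432, Fisher's exact test). Pcdhb16 was called in LSK 1, LSK 2 and CFUMk at 6.84, 11.3 and 15.0. Pcdhb2 and Pcdhb3 were called in LSK 2 and CFUMk, Pcdhb14 in LSK 1 and CFUMk, and Pcdhb4, Pcdhb10 and Pcdhb15 in CFUMk alone. In the line Pcdhb21 was called in 3 libraries at 5.02 to 6.44 and Pcdhb22 and Pcdhb6 in 1 each, and 1 peak was shared by the neighbours Pcdhb21 and Pcdhb22. The remaining Pcdhg genes were seen little: Pcdhga11 in GMP and CFUMk, Pcdhgb1 in LSK 2, and Pcdhga3, Pcdhga4, Pcdhga5, Pcdhga10 and Pcdhga12 in CFUMk. In all, 11 genes were called in CFUMk and in no other of the 25 libraries.

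Per library, primary cells called more of the genes than the line. The 14 line libraries called 1 to 7 genes (median 2, mean 2.50 ± 1.65 SD, n = 14) and the 11 primary libraries 1 to 27 (median 5, mean 6.91 ± 7.57 SD, n = 11). The ranges overlapped: CFUE and both ERY libraries called 1 gene each, iMk 3 and 7, MEP 4, CMP 5, GMP 7, LSK 7 and 13, and CFUMk 27. The difference of 4.41 genes had p = 0.0245 (two-sided permutation test, 100000 resamples), and 0.0734 after Benjamini-Hochberg adjustment over the 3 tests made on libraries, so it did not pass the threshold of 0.05. Without CFUMk the difference was 2.40 genes (unadjusted p = 0.0575, same permutation test).

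The number of genes called went with the length of the list. The 3 primary libraries with 1 gene each had the shortest lists of their group, 11990, 8284 and 6629 peaks, and CFUMk the longest, 36481. At like lengths, MEP (15002 peaks) called 4 genes and line replicate 11 (15012 peaks) 3, and iMk 2 (21494 peaks) and line replicate 20 (21986 peaks) called 7 each. Other libraries differed more: LSK 1 (18945 peaks) called 7 genes, line replicate 13 (17510 peaks) 2 and iMk 1 (19612 peaks) 3. CMP (26316 peaks) and GMP (34416 peaks) called 5 and 7. The link with list length was not tested. The 7 genes of iMk 2 included Pcdha6, Pcdha7 and Pcdha8, while those of line replicate 20 included no Pcdha gene. When each list was held to its 7000 strongest peaks (6629 in ERY 2), the direction turned, with a mean of 0.929 genes in the line and 0.545 in primary cells (p = 0.0776, two-sided permutation test). In those lists 13 of 14 line libraries called Pcdhgb8 and nothing else, and a primary library called at most 1 gene, Pcdhgb7 in MEP, ERY 1 and ERY 2, Pcdhgb6 in CMP, Pcdhgb8 in CFUE and Pcdha8 in GMP. Over all libraries the share of the 58 genes called was on average 4.31% in the line and 11.9% in primary cells, beside 5.97% and 10.4% of all protein-coding genes, and the difference between the groups beyond that of all genes did not pass (3.16 percentage points, p = 0.255, permutation test). Within the same library the share of the 58 genes exceeded that of all protein-coding genes in 2 of 14 line and 4 of 11 primary libraries.

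**Figure D3:**
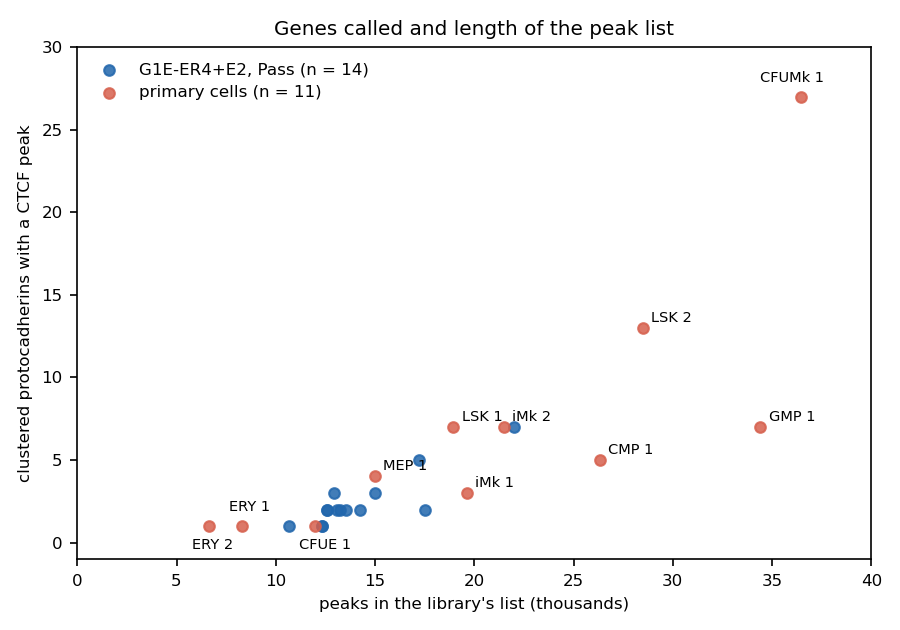
Number of the 58 genes with a CTCF peak at the promoter or first exon against the number of peaks in the library's list (in units of 1000), with 1 point for each of 14 Pass libraries of the line (blue) and 11 primary libraries (red, named). Short lists hold 1 gene and CFUMk, the longest list, 27, while GMP, with 34416 peaks, holds 7.

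As a share of the whole list, the window held 0.0967% ± 0.0096 (SD, n = 14) of CTCF peaks in the line and 0.0863% ± 0.0212 (SD, n = 11) in primary cells. Primary libraries ranged from 0.0604% in ERY 1 to 0.126% in CFUMk, on either side of the line's range of 0.0810% to 0.111%. The difference did not pass (p = 0.116, adjusted p = 0.125, two-sided permutation test). Without CFUMk it was −0.0143 percentage points, primary minus line (unadjusted p = 0.0207, same permutation test). With lists held to their 7000 strongest peaks the primary share was lower, 0.0810% against 0.109% (p = 6e-05, two-sided permutation test).

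Of the 64 merged sites 28 were called in at least 3 of the 25 libraries and were tested one by one, with Fisher's exact test over libraries adjusted over all 28834 such sites of the genome. Primary cells called 2 of the 28 sites more often, or 7.14%, against a background of 9.82% of all sites tested. The line called 0 of the 28 more often, against a background of 1.28%, and at an unadjusted p under 0.05 these counts were 6 and 3. The first of the 2 sites lies in the first exon of Pcdha7, at chr18:36973882-36974752, called in 0 of 14 line and 6 of 11 primary libraries (adjusted p = 0.0259). It no longer passed with Pass primary libraries only, over all merged sites, with peaks of −log10 p of at least 10 or without LSK 2. The other, at chr18:37955883-37956752, lies between the protocadherins and the end of the window, at the start of both Hdac3, which encodes a histone deacetylase, and Rell2, and was called in 0 of 14 line and 7 of 11 primary libraries (adjusted p = 0.0107). Its −log10 p was 5.47 in LSK 1, 11.4 in LSK 2, 8.77 in CMP, 8.09 in MEP, 17.1 in GMP, 49.6 in CFUMk and 6.59 in iMk 2, and it was in neither CFUE nor ERY. Without CFUMk both sites still passed, together with the site 725 kb from the first gene, which was called more often in the line.

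Among the sites that did not pass, those of lowest adjusted p ran in both directions. Pcdha8 was called in 0 line and 5 primary libraries (adjusted p = 0.0555), Pcdhgb7 in 4 and 9 (0.0959), Pcdhgb6 in 3 and 8 (0.100) and Pcdhgb5 in 0 and 4 (0.110), all by Fisher's exact test. Called more in the line were the site of Pcdhgb8, in 14 line and 7 primary libraries (adjusted p = 0.110), an intron site of Diaph1 with the same counts (0.110), and a site between the Pcdhb and Pcdhg groups, in 10 and 2 (0.0959). In lists held to their 7000 strongest peaks the 2 sites that passed were Pcdhgb8 and the last site of the window, at chr18:38024505-38025526, and both were called more often in the line. With the 8 line libraries whose chromatin was 217 to 283 bp long, the range of the primary libraries, no site of the window passed, and 5 did at an unadjusted p under 0.05.

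**Figure D4:**
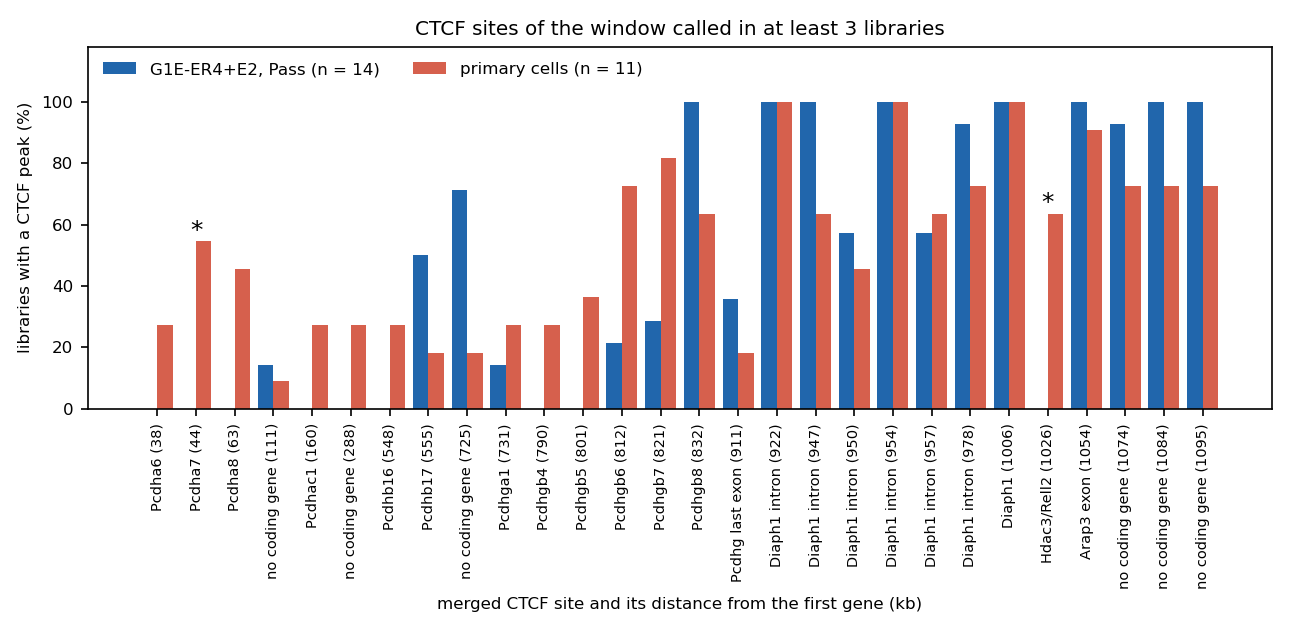
Percent of 14 Pass libraries of the line (blue) and of 11 primary libraries (red) with a CTCF peak at each of the 28 sites of the window called in at least 3 libraries, named by the gene at whose start or in which they lie and by the distance from the first gene in kb; an asterisk marks an adjusted p under 0.05 (Fisher's exact test). The sites of Pcdha7 and of Hdac3 and Rell2 carry the asterisks, and the 3 sites at 100% in both groups lie in Diaph1.

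The sites called in every library of the line and of primary cells lay downstream of the genes, at Diaph1, which encodes a formin that builds actin filaments. Of the 28 sites, 3 (10.7%) were called in all 25 libraries, against a background of 8.64% of sites tested. They lie 10.5, 41.8 and 93.9 kb past the last gene, at chr18:37851778-37852968 and chr18:37883107-37884328 in introns of Diaph1 and at chr18:37935229-37936220 at its start. Their −log10 p in the line was 9.18 to 66.6 (median 32.6), 14.1 to 57.1 (median 29.1) and 9.29 to 34.5 (median 16.03), and in primary cells 5.06 to 117 (median 34.6), 7.84 to 115 (median 25.6) and 11.3 to 72.4 (median 28.9). The first 2 stood at median percentiles of 94.3 and 93.3 of the line's lists, higher than the 74.0 of Pcdhgb8.

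Other sites of the downstream block were called less evenly. An exon site of Arap3, a GTPase-activating protein gene, was called in 14 line and 10 primary libraries, all but CFUE. The last 3 sites of the window, 163, 172 and 183 kb past the last gene, were called in 13, 14 and 14 line libraries and in the same 8 primary libraries, and CFUE and both ERY libraries lacked all 3. CFUE had 4 peaks after the last gene and the ERY libraries 4 and 5, against 10 to 13 in the other 8 primary libraries and 7 to 11 in the line. These 3 lists are also the shortest of the primary libraries, and the part of list length in this gap was not tested. Among Diaph1 introns, sites 35.7, 38.6, 45.3 and 66.4 kb past the last gene were called in 14, 8, 8 and 13 line and in 7, 5, 7 and 8 primary libraries.

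Few sites were called between the groups of genes. A site 725 kb from the first gene, between the Pcdhb and Pcdhg groups, was called in 10 of 14 line libraries at a −log10 p of 5.02 to 14.2 (median 6.34), and in GMP and CFUMk. A site 288 kb from the first gene, between the Pcdha and Pcdhb groups, was called in LSK 2, CMP and CFUMk at 9.85, 7.88 and 9.94 and in no line library. A neighbouring site 287 kb from the first gene was called in CFUMk alone. A site at the last exon that the Pcdhg genes share was called in 5 line libraries and in ERY 2 and CFUMk. The 36 sites called in 1 or 2 of the 25 libraries were mostly of primary cells, and their median width was 535 bp against 911 bp for the 28 others.

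The DNA under the sites was searched for the CTCF motif on both strands with a matrix learned from LSK peaks of the other chromosomes, whose consensus was NNNCCACNAGGGGGCNNNN. A match at a p of 0.0001 per position was found in 22 of the 28 sites (78.6%), against 95.9% of all sites called in at least 3 libraries. At a p of 1e-05 these were 13 of 28 (46.4%) and 81.9%. The called sites of Pcdhga1, Pcdhgb4, Pcdhgb5 and Pcdhgb6 held no match, and neither did the site of Hdac3 and Rell2. Of the 36 sites called in 1 or 2 libraries 25 (69.4%) held a match, against 48.4% of such sites in the genome. At the stricter p of 1e-05 this excess was gone, with 8 of 36 (22.2%) against 25.5%. A match is a likeness of letters and not a measured site.

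The strand of the best match differed between the genes and the region after them. At the 12 sites in a promoter or first exon called in at least 3 libraries, 8 had a match, and in all 8 the best match was on the plus strand, the strand of the genes. At the 12 such sites after the last gene, 11 had a match, and the best one was on the minus strand at 7 and on the plus strand at 4. Of the sites in introns and at the start of Diaph1, 6 had it on the minus strand, including the 3 called in all libraries, and 1 on the plus strand. Both sites 287 and 288 kb from the first gene, which also lie downstream of the Pcdha genes, had it on the minus strand. Over all 33 sites in a promoter or first exon, however rarely called, 11 had no match, and the best match was on the plus strand at 19 and on the minus strand at 3. At the stricter p of 1e-05 these were 4 and 1. Of the 12 such sites called in at least 3 libraries, only those of Pcdha6, Pcdha7 and Pcdha8 kept a match. All 3 were on the plus strand. The sites of Pcdha6 and Pcdha7 also held weaker minus-strand matches. After the last gene, the best match at this p was on the minus strand at 6 of the 12 sites and on the plus strand at 3. The Diaph1 site 41.8 kb past the last gene, called in all libraries, held 1 such match on each strand. The best matches on the plus strand at promoters and those on the minus strand in Diaph1 point toward each other. Whether these pairs form loops was not measured.

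Motif matches were also sought at the genes themselves, with or without a peak. In the 1000 bp before the start 34 of the 58 genes (58.6%) held a match, near the 55.8% of all protein-coding genes. The best match was on the strand of the gene in 28 of these 34 (82.4%), against 53.8% of all genes with a match. Among Pcdhb genes with a match it was so in 9 of 10, and among Pcdhg genes in 6 of 11. Over whole first exons the best match was on the strand of the gene in 27 of 53 genes with a match. At a p of 1e-05 this was 12 of 24. Of the 14 Pcdha genes 13 held a match before the start, all 13 on the strand of the gene, at a median of 91 bp before the start. At a p of 1e-05, 10 of the 14 (71.4%) held a match in the 1000 bp after the start, all 10 on the strand of the gene and 462 to 587 bp from the start, against 17.2% of all protein-coding genes. The middles of the peaks of Pcdha7 and Pcdha8, 554 and 513 bp after the start, lay in this stretch, and that of Pcdha6, at 596 bp, just past it. Several Pcdhga genes also held their best match at a like position, between Pcdhga2 at 357 bp and Pcdhga11 at 450 bp after the start, but of all genes in the Pcdhb and Pcdhg groups only Pcdhga5 held so strong a match there. Matches stood also at genes with no peak: Pcdha1, never called, held the highest-scoring match of the 58 genes in this stretch, 566 bp after its start.

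**Figure D5:**
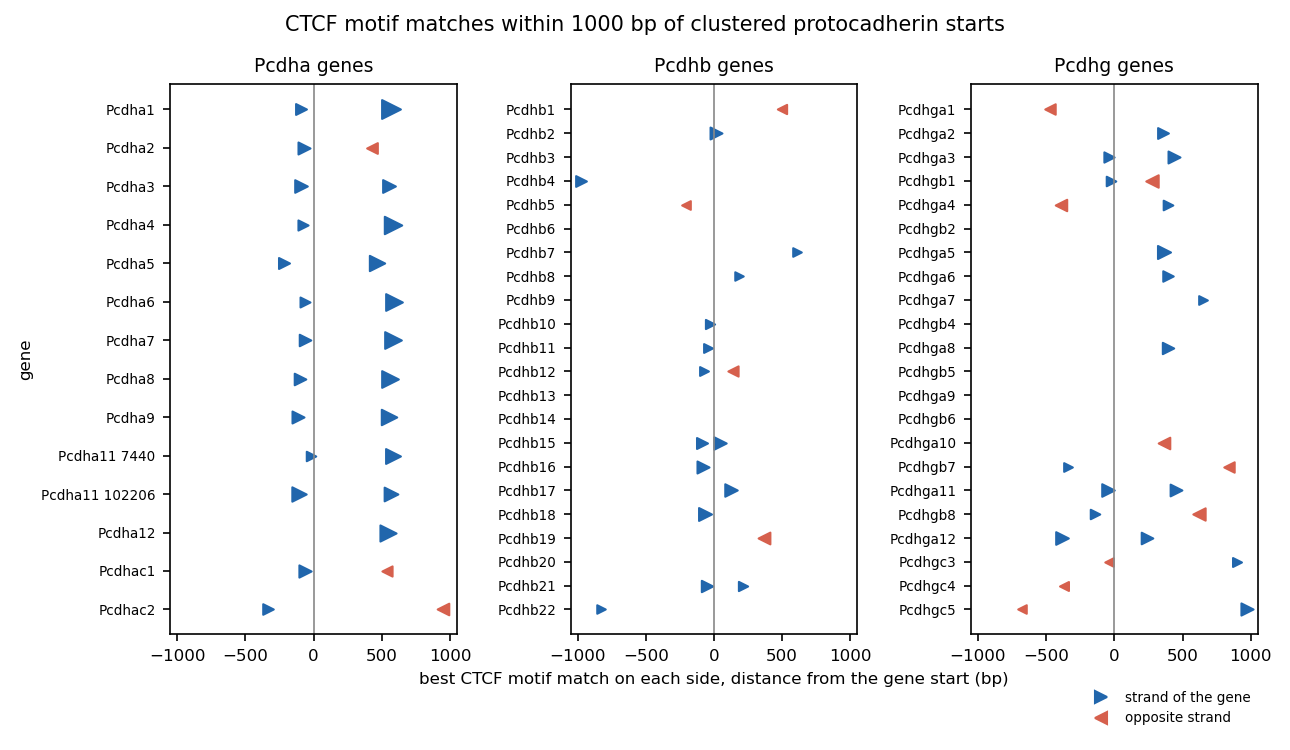
Best match to the CTCF motif (p of 0.0001 per position) in the 1000 bp before and in the 1000 bp after the start of each of the 58 genes, as distance from the start in bp; triangles point right (blue) on the strand of the gene and left (red) on the opposite strand, their area grows with the score, and genes without a triangle held no match. In the Pcdha panel large triangles stand between 462 and 587 bp after the start of 10 genes, and smaller ones recur at like positions in the other panels too, as between 357 and 450 bp after the start of several Pcdhga genes.

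Low pass libraries of the line kept Pcdhgb8 and many downstream sites, and Fail libraries kept hardly any of them. Of 14 window sites called in at least 50% of the Pass line libraries, the 2 Low pass libraries called 7 (50%) and 9 (64.3%), against 47.1% and 45.5% of 13977 such sites in the genome. Among the 7 Fail libraries, replicates 14 and 21 called 1 of the 14 each (7.14%), against 6.11% and 4.67% in the genome, and the other 5 called none, against at most 0.258%. The mean difference between window and genome was 2.73 percentage points (SD 6.15, n = 9), higher in the window in 4 of 9 libraries, and did not pass (p = 0.125, adjusted p = 0.125, two-sided exact sign-flip permutation test). The 5 libraries that called no window site could add almost nothing to this difference. The test thus rested on the other 4 and could hardly pass, so no conclusion is drawn from it. Without the Low pass library replicate 12 it was 0.722 points. No Fail library had a peak at a promoter or first exon of the 58 genes. Fail replicates 15, 16 and 18 shared peaks 93.0, 663 and 703 kb from the first gene, and none of these 3 places is a promoter or first exon of the genes.

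In none of the 19 TAL1 libraries was a peak called at a promoter or first exon of the 58 genes, against a background of 5.05% of all protein-coding genes in at least 1 library. In a single Pass library 1.29% to 4.28% of all genes were called, so a list of this length would hold few calls among 58 genes. Whether 0 of 58 over all libraries differs from the 5.05% was not tested. The TAL1 lists held 30 peaks in the window in all. A single TAL1 site, in an intron of Diaph1 84.1 kb past the last gene, at chr18:37925388-37926652, was called in 10 of 10 Pass, 4 of 4 Low pass and 2 of 5 Fail libraries. In the Pass libraries its −log10 p was 51.8 to 229 (median 74.0), at percentiles of 89.6 to 97.8 of each list. In the Low pass libraries it was 15.1 to 59.2 and in the 2 Fail libraries 6.38 and 11.03. The 6 other TAL1 sites were called in 1 to 4 libraries, and among them only 1, in an exon of Taf7, a subunit gene of the general factor TFIID, and 1 called in a Fail library lay among the protocadherins. None of the 7 TAL1 sites overlapped a CTCF site of the window.

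Other protocadherin genes and regulators gave a comparison from outside the 3 gene groups. Of 12 protocadherins outside the clusters, 1 was called in the line and 4 in primary cells, against 10.1% and 24.4% of all protein-coding genes: Pcdh1 in 14 of 14 line and 9 of 11 primary libraries, and Pcdh7, Pcdh17 and Pcdh8 in 0 line and in 6, 5 and 3 primary libraries. Of 12 genes for known regulators of clustered protocadherins, 4 were called in the line and 8 in primary cells, against the same background, which also rose in primary cells. The cohesin genes Smc3 and Stag1 were called in 14 and 9 line and in 9 and 11 primary libraries, and Nipbl, the cohesin loader gene, in 13 and 10. Wiz, a zinc finger gene, was called in 9 and 5. Stag2, Ctcf itself, Dnmt3b and Smc1a were called in no line library and in 8, 6, 3 and 1 primary libraries. Like Pcdha7 and Pcdha8, these genes were called in primary cells alone, and a difference from the 58 genes was not tested.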

How the data were processed

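Reads were mapped to mm10 (GRCm38) with Bowtie and peaks called per library with MACS by the authors. Versions named in the submitters' processing notes are bcl2fastq 1.8.4 and Bowtie 1.0.0. How duplicate reads were handled, and the p cutoff, are not given in the sources used here. The deposited lists give each peak's fold enrichment, a ratio over background, and its −log10 p. The lowest −log10 p is near 5. Values were not rescaled. They depend on read depth, which is unknown here, so percentiles within a list were used. The FDR column was not used. The number of libraries limits the precision.

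Genes were taken from GENCODE M21 (basic set). Peaks with an overlap of 1 bp or more were merged. The line and primary libraries were compared with permutation tests over libraries and Fisher's exact test per site, with a threshold of 0.05, in Python 3.11.15 with scipy 1.17.1. Adjusted p are Benjamini-Hochberg values. For the motif, 19 bp wide, 15 rounds of refinement were run on 2000 peaks of an LSK library, those of highest −log10 p outside chromosome 18, using 200 bp around each middle. The site test and the motif scan were tested on simulated data. Of all peaks, 0 lay past the end of a chromosome of the reference, and at most 0.165% of the shorter list's peaks were shared exactly between a pair of libraries.

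Samples were grouped by their labels. In 1 library titled TAL1 the antibody label reads CTCF, and it was kept with TAL1. Named are all genes of the 3 groups with a peak in at least 1 library, all window sites called in at least 50% of the libraries of a group, and the called genes of 2 lists of 12. The genes and lists were chosen with earlier results of these data known. Alternatives were lists of the 7000 strongest peaks, a −log10 p of at least 10, Pass libraries only, like chromatin lengths, other intervals and leaving out each library.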

Additional observations from a re-analysis of the deposited data

How the results depend on the processing

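No paired analysis was possible because replicate numbers only name libraries in the order of deposition. The difference in genes called per library (4.41, primary minus line, unadjusted p = 0.0245) lost its unadjusted significance with peaks of −log10 p of at least 10 (2 genes, p = 0.0534), Pass primary libraries only (4.61, p = 0.0563) and line libraries of like chromatin length (3.91, p = 0.145). It turned with the 7000 strongest peaks of each list (−0.383, p = 0.0776). After seeing the data, 2 alternatives were added: these lists without CFUMk (−0.329, p = 0.148), and the percent of the 58 genes minus that of all protein-coding genes (3.16 percentage points, p = 0.255); all are permutation tests. Leaving out 1 library gave 2.40 to 5.00, with a p of 0.00984 to 0.0575, above 0.05 without CFUMk (2.40, p = 0.0575) or LSK 2 (3.80, p = 0.0565). The difference in the window's share of the list was larger with the 7000 strongest peaks (−0.0282 percentage points) and at −log10 p of at least 10 (−0.0210, p = 0.0137, permutation test), and −0.0143 to −0.00775 when 1 library was left out, past the threshold without CFUMk (p = 0.0207, permutation test). Sites that passed Fisher's test numbered 1 at −log10 p of at least 10 (Pcdhgb7), 1 with Pass libraries only and 1 over all merged sites (Hdac3 and Rell2 in both, Pcdha7 lost), 0 with like chromatin lengths, and 1 to 4 with 1 library left out: 1 without LSK 2, and 4 without CFUE or GMP. The recall difference turned to −1.21 percentage points for sites called in every Pass library and −0.719 at −log10 p of at least 10, and was 0.722 (without replicate 12) to 3.11 with 1 library left out. TAL1 peaks in the window fell from 30 to 19 at −log10 p of at least 10. The motif share was 46.4% at a p of 1e-05. With 500 or 1000 bp on both sides of the start, the mean number of genes was 6.82 in primary cells and 2.43 in the line. The difference was 4.39 with either interval (p = 0.0225, permutation test). Counting a gene only where the middle of the peak lay inside the interval left both means as they were. With the middle 200 bp of each peak, 27 sites of the window were tested and 2 passed.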
